A study of Homo sapiens with 2 samples.

Results

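The genes described here encode proteoglycan core proteins and the enzymes that build and sulfate their glycosaminoglycan chains. They were chosen by symbol: the CHST, HS2ST, HS3ST, HS6ST, NDST, EXT, B3GAT, CHSY, CSGALNACT and SULF enzymes, the syndecans (SDC) and glypicans (GPC), and the core protein or hyaluronan synthase genes BGN, DCN, LUM, VCAN, HSPG2, FMOD, CSPG4, SRGN, AGRN, HAS2 and HAS3. A probe had to carry a value on at least 1 of the 2 arrays. This gave 53 genes, on 54 probes, of the 10750 named genes with a value. Another 7 genes of these families (CHST9, FMOD, GPC5, GPC6, HS3ST4, HS6ST3 and NDST4) had probes but no value on either array.

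The study measured cultured cells of 2 established human mesothelioma lines on 2-colour arrays, with 1 array for each comparison. One array compared ACC-MESO1 cells depleted of CD26 with control ACC-MESO1 cells. The other compared MSTO-211H cells carrying CD26 from a pLNCX2 vector with control MSTO-211H cells. CD26 is a dipeptidyl peptidase of the cell surface, and the design asked which genes differ when it is lowered or raised. The depleting agent is named as an siRNA in the design text and as an shRNA in the treatment protocol, and the labels give neither the treatment of the control cells nor whether the manipulated cells were clones or pools. Every value below is a log2 ratio of manipulated over control cells from a single array, so there is no replicate error, test or p-value, and precision is limited by having 1 array for each comparison. The nearest gauge of error was the pooled SD between different probes of the same gene, 0.42 for depletion (566 genes) and 0.45 for transfection (471 genes). It was taken within 1 array, so it leaves out differences between cultures, dyes and arrays. The SD of the log2 ratio over all named genes was little larger, at 0.48 for depletion and 0.50 for transfection. In whole cultures, fewer cells expressing a gene and less RNA of it per cell cannot be told apart.

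A proteoglycan is a core protein to which long sulfated sugar chains, heparan sulfate or chondroitin sulfate, are attached in the Golgi apparatus. A linkage sugar is laid down first, polymerases then extend the chain, and sulfotransferases write a pattern of sulfate groups that sets which growth factors, chemokines and matrix proteins the chain binds. Hyaluronan is a related chain that is made without a core protein at the plasma membrane, and mesothelial cells and mesotheliomas are known for producing it.

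DPP4, which encodes CD26, was at -3.92 in depleted cells and at 5.51 in transfected cells, as the labels have it. Of 11 mesothelial marker genes, 10 had a value on each array, with medians of 0.08 after depletion and -0.05 after transfection. Past 2-fold among them were ITLN1 (1.38) after depletion, and MSLN (-1.31) and KRT18 (-1.16) after transfection. Of 14 markers of leukocytes, endothelium, epithelium and fibroblasts, 9 had a value on each array, with medians of 0.05 and -0.30; CD3E (1.88 after transfection) was the one past 2-fold. A ratio shows no level, so the identity of the cells could not be checked from these values, and the part of other cell types in the results was not tested.

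Among the 51 proteoglycan and chain enzyme genes measured after CD26 depletion, 3 were at least 2-fold higher (a log2 ratio of at least 1) and 0 were lower by as much. Over all 10347 named genes of that array, 3.31% passed 2-fold upward and 1.56% downward. The 3 genes were SDC4 (1.57, 2.96-fold), HS3ST3A1 (1.24, 2.36-fold) and CHST11 (1.19, 2.29-fold). Among the 46 genes measured after CD26 transfection, 3 were at least 2-fold higher and 1 was lower by at least as much, against 4.09% and 1.37% of all 9359 named genes. The higher ones were BGN (2.20, 4.59-fold), HS6ST2 (1.42, 2.68-fold) and B3GAT2 (1.22, 2.33-fold), and the lower one was CHST11 (-1.23, 2.34-fold). Counts this small do not set the families apart from all genes, and the values below describe single genes. All 6 genes rested on a single probe.

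As a set, the members were centred near all genes. Their median log2 ratio was 0.06 after depletion, against 0.01 for all named genes, and 0.07 after transfection, against 0.01. After depletion 58.8% of the members were above 0, and of all genes 51.3%; after transfection the shares were 52.2% and 50.7%. Ratios within 0.5 of 0 made up 74.5% of the members and 77.4% of all genes after depletion, and 73.9% and 77.5% after transfection. Just short of 2-fold were NDST3 (0.97) after transfection, and CHST3 (0.92), EXTL2 (-0.90) and LUM (-0.89) after depletion.

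**Figure D1:**
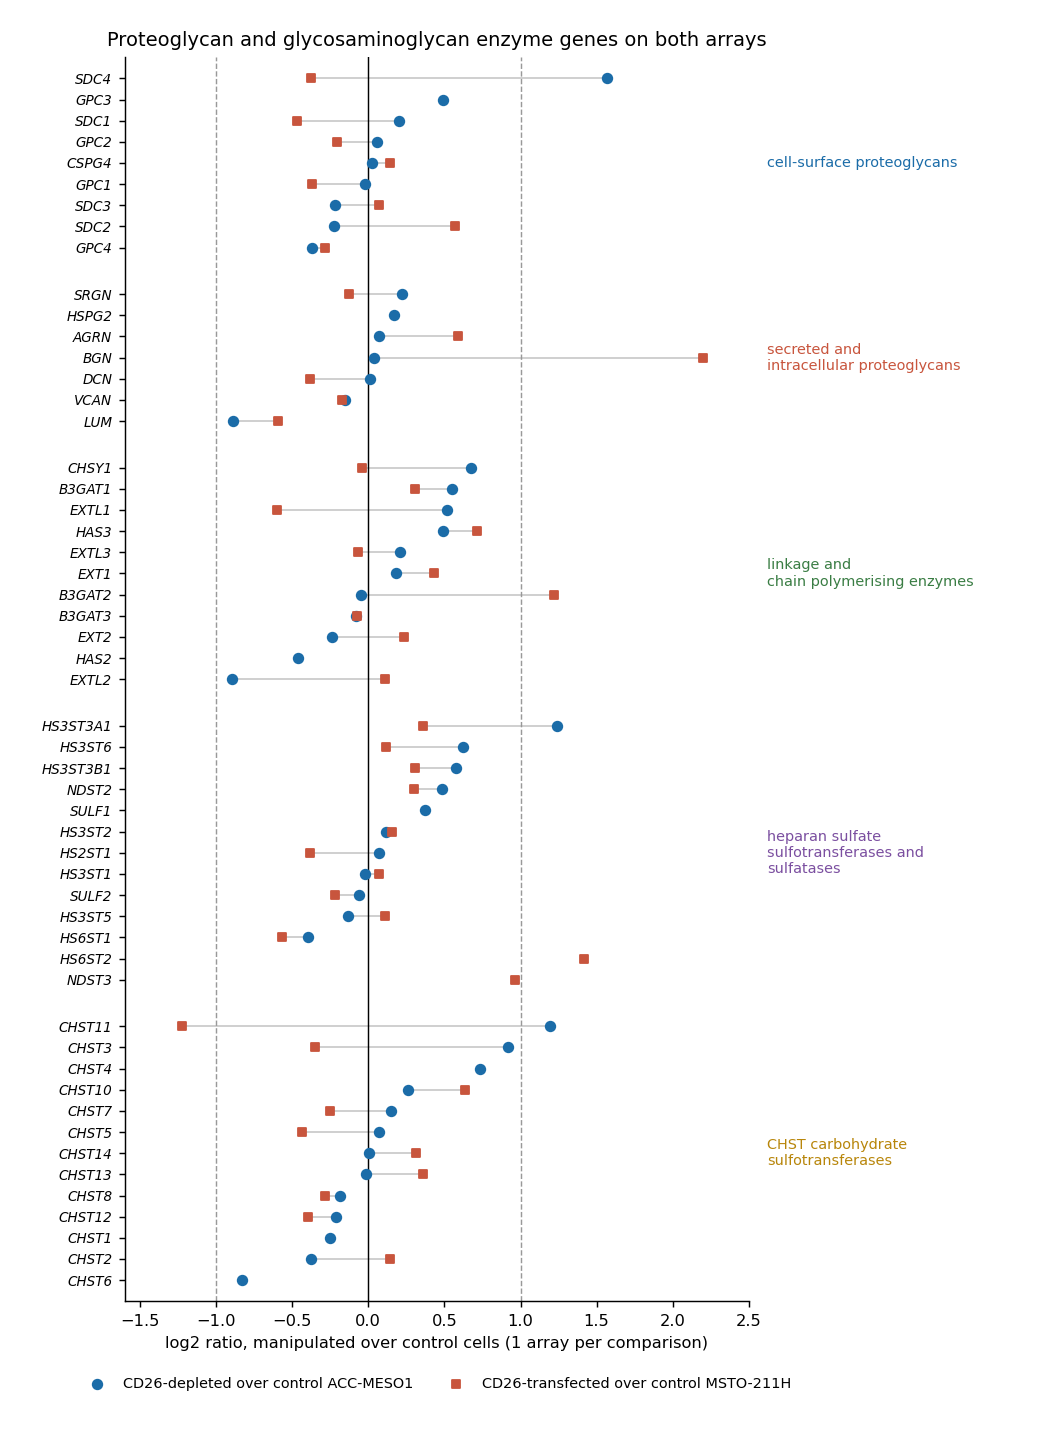
Log2 ratio (x axis) of each of the 53 genes, grouped by role, for CD26-depleted over control ACC-MESO1 cells (circles) and CD26-transfected over control MSTO-211H cells (squares); grey lines join both values of a gene and dashed lines mark 2-fold. Most points lie within 0.5 of 0, with SDC4, HS3ST3A1 and CHST11 to the right after depletion, BGN, HS6ST2 and B3GAT2 to the right after transfection, and CHST11 to the left after transfection; the point named SRGN is the probe listed as PRG1.

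The 250 bases before the transcription start of these 6 genes are shown because the genes carry every value past 2-fold, 3 of them higher together after depletion and 3 higher together after transfection. The sequences are those of RefSeq on GRCh38.p14, read 5′ to 3′ on the strand of the gene, and capitals mark matches to the motifs named after them. The array values do not bear on these regions directly.
SDC4: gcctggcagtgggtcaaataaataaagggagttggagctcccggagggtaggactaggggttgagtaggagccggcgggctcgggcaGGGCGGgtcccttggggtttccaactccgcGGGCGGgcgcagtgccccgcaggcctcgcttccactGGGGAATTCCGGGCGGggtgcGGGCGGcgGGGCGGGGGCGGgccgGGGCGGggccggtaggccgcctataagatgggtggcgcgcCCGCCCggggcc
HS3ST3A1: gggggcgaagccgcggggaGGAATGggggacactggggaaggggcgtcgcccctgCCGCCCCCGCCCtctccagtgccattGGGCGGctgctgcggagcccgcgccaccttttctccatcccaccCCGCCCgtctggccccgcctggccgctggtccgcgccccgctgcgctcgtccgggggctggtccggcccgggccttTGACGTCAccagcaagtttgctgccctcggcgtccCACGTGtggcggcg
CHST11: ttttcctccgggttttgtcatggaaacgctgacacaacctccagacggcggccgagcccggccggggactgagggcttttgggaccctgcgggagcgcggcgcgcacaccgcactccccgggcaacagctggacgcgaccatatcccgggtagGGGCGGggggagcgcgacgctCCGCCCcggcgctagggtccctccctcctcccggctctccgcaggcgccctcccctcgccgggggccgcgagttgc
BGN: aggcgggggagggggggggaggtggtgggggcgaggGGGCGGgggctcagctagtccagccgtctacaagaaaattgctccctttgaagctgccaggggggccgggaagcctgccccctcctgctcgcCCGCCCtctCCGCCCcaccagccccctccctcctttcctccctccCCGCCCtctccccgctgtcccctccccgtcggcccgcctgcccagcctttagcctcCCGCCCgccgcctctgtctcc
HS6ST2: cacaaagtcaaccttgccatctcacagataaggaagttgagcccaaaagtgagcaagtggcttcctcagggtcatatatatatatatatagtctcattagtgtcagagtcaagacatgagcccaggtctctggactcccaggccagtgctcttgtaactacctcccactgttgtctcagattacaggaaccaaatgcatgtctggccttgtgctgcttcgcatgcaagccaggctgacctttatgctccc
B3GAT2: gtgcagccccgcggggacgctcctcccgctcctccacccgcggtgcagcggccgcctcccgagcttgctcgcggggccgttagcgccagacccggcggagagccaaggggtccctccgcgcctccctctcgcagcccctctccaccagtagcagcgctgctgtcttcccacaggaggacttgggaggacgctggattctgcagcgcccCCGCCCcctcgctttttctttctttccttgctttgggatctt

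These windows lie at chr20:45348425-45348674 (minus strand) for SDC4, chr17:13601930-13602179 (minus strand) for HS3ST3A1 and chr12:104456698-104456947 (plus strand) for CHST11. Those of the genes higher after transfection lie at chrX:153494730-153494979 (plus strand) for BGN, chrX:132961371-132961620 (minus strand) for HS6ST2 and chr6:70957061-70957310 (minus strand) for B3GAT2. Matches on both strands were sought for the TATA box (TATAAA), the GC box (GGGCGG), AP-1 (TGANTCA), the cAMP response element (TGACGTCA), TEAD (GGAATG), the E-box (CACGTG) and the kappaB consensus, and no match overlapped another in the 6 windows.

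The GC box was the common feature, with 8 matches before SDC4, 5 before BGN, 4 before HS3ST3A1, 2 before CHST11, 1 before B3GAT2 and 0 before HS6ST2. Over 34943 such windows of all genes, 42.5% hold a GC box. Among the measured members, 41 had 53 windows, since some have several start sites, and 81.1% of those windows held one. SDC4 also held a match to the kappaB consensus, the site of NF-kB, whose first base was at position -97 from the start; 5.2% of all windows hold one. HS3ST3A1 held a cAMP response element at -49, a TEAD match at -231 and an E-box at -14, motifs found in 1.63%, 11.9% and 6.32% of all windows. None of the 6 windows held a TATA box or AP-1 match (10.8% and 6.59% of all windows). GC content was 69.2% to 76.0% in 5 windows and 48.0% before HS6ST2, against a median of 58.0% over all windows. A match is a run of letters, not a shown binding site.

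Among core proteins of the cell surface, syndecan-4 stood out after CD26 depletion. SDC4 encodes a transmembrane heparan sulfate proteoglycan of focal adhesions that acts with integrins. Its log2 ratio was 1.57 in depleted ACC-MESO1 cells, and 1.11% of all named genes lay at or above it; in transfected MSTO-211H cells it was -0.37. The other syndecans were short of 2-fold on both arrays: SDC1, the main syndecan of epithelia, had 0.20 after depletion and -0.47 after transfection, SDC2 had -0.23 and 0.57, and SDC3 had -0.22 and 0.07. Thus SDC1 and SDC4 were above 0 after depletion and below 0 after transfection, and SDC2 and SDC3 were the other way round. Only SDC4 after depletion, and SDC1 and SDC2 after transfection, were beyond the SD between probes (0.42 and 0.45). Moreover, all 4 were above 0 after depletion once the median of 34 ribosomal protein genes was set to 0 on that array. So were 82.2% of all genes.

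Glypicans carry heparan sulfate on a lipid anchor. GPC1 (-0.02 after depletion and -0.37 after transfection), GPC2 (0.06 and -0.21) and GPC4 (-0.37 and -0.29) were all below 0 after transfection. Each was so by less than the SD of 0.45 between probes. As deposited, 50.7% of all genes were above 0 on that array. With the ribosomal centring 1 of the 3 was below 0, and 78.7% of all genes were above 0. GPC3, an inhibitor of hedgehog signalling, had 0.49 after depletion and was not measured after transfection. The chondroitin sulfate proteoglycan gene CSPG4 (NG2) had 0.03 and 0.14. Over the 9 cell-surface core proteins the median was 0.03 after depletion, and over the 8 measured after transfection it was -0.25.

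Among secreted core proteins, biglycan was the outlier. BGN encodes a small leucine-rich proteoglycan with chondroitin or dermatan sulfate chains that binds collagen and TGF-beta. Its log2 ratio in transfected MSTO-211H cells was 2.20, the highest of all members on either array and the 18th highest of the 9359 named genes. In depleted ACC-MESO1 cells it was 0.04. Its relatives decorin and lumican, which bind and space collagen fibrils, had the opposite sign to BGN after transfection. With the ribosomal centring the signs were the same, with DCN at -0.10 and LUM at -0.31. As deposited, DCN was at 0.01 in depleted and -0.38 in transfected cells, the latter within the SD of 0.45 between probes. LUM was at -0.89 and -0.60. LUM was thereby below 0 on both arrays, and 2.3% of all genes lay at or below its depletion value.

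Among the large matrix proteoglycans, no value passed 2-fold. VCAN (listed as CSPG2), the versican gene, had -0.15 after depletion and -0.17 after transfection, and AGRN, encoding agrin of basement membranes, had 0.07 and 0.59, the transfection value being beyond the SD between probes. Perlecan, HSPG2, was at 0.17 after depletion and had no value after transfection. The probe listed as PRG1 had 0.22 and -0.13. PRG1 is an older symbol of serglycin, SRGN, the granule proteoglycan, but is also the current symbol of another gene, and the annotation used here does not settle which one the probe measures.

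**Figure D2:**
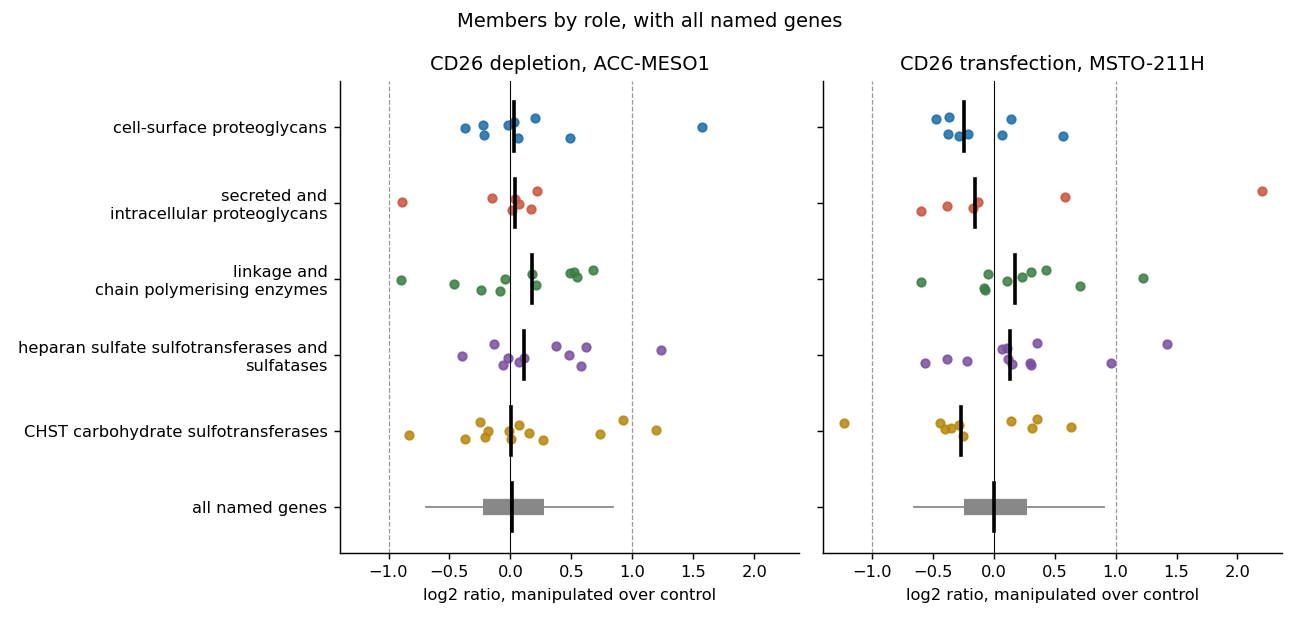
Log2 ratios (x axis) of the members by role on the depletion array (left) and the transfection array (right), 1 point for each gene, with the median as a black bar. The bottom row gives all named genes of the array (box, middle 50% of genes; line, middle 90%). The 5 role medians lie between 0.00 and 0.18 after depletion, inside that box, and between -0.27 and 0.17 after transfection, where those of cell-surface proteoglycans (-0.25) and CHST enzymes (-0.27) fall just below its lower edge at -0.24.

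Chain initiation and elongation showed single genes away from 0 rather than a common direction. EXT1 and EXT2 form the heparan sulfate polymerase: EXT1 had 0.18 after depletion and 0.43 after transfection, and EXT2 had -0.24 and 0.23. Of the related EXTL genes, EXTL3, which starts the heparan sulfate chain, had 0.21 and -0.07. EXTL1 had 0.52 and -0.60. EXTL2, encoding a transferase that acts on the linkage region, had -0.90 and 0.11, and was the lowest of all members after depletion. CHSY1, a chondroitin polymerase, was the highest of this class after depletion at 0.68, and had -0.04 after transfection.

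The B3GAT genes encode glucuronyltransferases. B3GAT3, which completes the linkage sugar of heparan and chondroitin sulfate chains, was near 0 on both arrays (-0.08 after depletion and -0.07 after transfection). B3GAT1 and B3GAT2 act mainly on the HNK-1 carbohydrate epitope of neural cells: B3GAT2 had -0.05 after depletion and 1.22 after transfection, and B3GAT1 had 0.55 and 0.31. CHST10, the sulfotransferase that finishes the same epitope, had 0.26 and 0.63. After transfection B3GAT2 was past 2-fold, with 2.52% of all genes at or above its value; B3GAT1 was within the SD of 0.45 between probes. These 3 genes were set together after their values were seen.

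Of the hyaluronan synthases, HAS3 was above 0 on both arrays, at 0.49 after depletion and 0.71 after transfection. HAS2 was at -0.46 after depletion and had no value after transfection. Both depletion values exceed the SD of 0.42 between probes by little, and they have opposite signs.

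Among the enzymes that edit heparan sulfate, the 3-O-sulfotransferases held 1 value past 2-fold. They add the rare 3-O-sulfate group that makes binding sites for antithrombin or for a herpes simplex virus glycoprotein. HS3ST3A1 was at 1.24 after depletion, where 2.03% of all genes lay at or above it, and at 0.36 after transfection. HS3ST3B1, a close paralog encoded near it, had 0.58 and 0.31. HS3ST6 had 0.62 and 0.12, HS3ST2 had 0.11 and 0.15, HS3ST1 had -0.02 and 0.07, and HS3ST5 had -0.13 and 0.11. As deposited, 4 of 6 HS3ST genes were above 0 after depletion, beside 51.3% of all genes, and 6 of 6 after transfection, beside 50.7%; each transfection value was smaller than the SD of 0.45 between probes. With the ribosomal centring 6 of 6 were above 0 on each array, where that centring put 82.2% and 78.7% of all genes above 0. Probes of HS3ST3A1 and HS3ST3B1 may share target sequence, since the sulfotransferase domains of these paralogs are nearly identical.

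The 6-O-sulfation genes gave the other high value. HS6ST2, a 6-O-sulfotransferase, had a log2 ratio of 1.42 after transfection and no value after depletion. Values of genes measured on the transfection array alone were more extreme in general, with 31.8% of 403 such genes past 2-fold, against 4.28% of the genes measured on both. HS6ST1 was below 0 on both arrays (-0.39 after depletion and -0.56 after transfection), the depletion value within the SD of 0.42 between probes. With the ribosomal centring the values of HS6ST1 were -0.07 and -0.28. SULF2, which removes 6-O-sulfate outside the cell, had -0.06 and -0.22, and SULF1, with the same activity, had 0.37 after depletion and no value after transfection. The N-sulfotransferase genes were above 0 where measured, as were 51.3% of all genes after depletion and 50.7% after transfection. NDST2 had 0.48 and 0.30, the latter within the SD of 0.45 between probes. NDST3 had 0.97 after transfection, again on that array alone. HS2ST1, the 2-O-sulfotransferase and the only member with more than 1 measured probe, had probes at 0.04 and 0.11 after depletion and at -0.33 and -0.43 after transfection.

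Among the CHST sulfotransferases, CHST11 was past 2-fold on both arrays and in opposite directions. CHST11 encodes chondroitin 4-O-sulfotransferase 1, the main enzyme of 4-O-sulfation of chondroitin. Its log2 ratio was 1.19 in CD26-depleted ACC-MESO1 cells, with 2.17% of all genes at or above it, and -1.23 in CD26-transfected MSTO-211H cells, where it was the 59th lowest of 9359 genes. Of the 8956 named genes measured on both arrays, 5 (0.0558%) passed 2-fold upward with depletion and downward with transfection, CHST11 among them. The arrays came from different cell lines, with controls of their own, and neither was repeated. With each array centred on its ribosomal protein genes the transfection value was -0.94, short of 2-fold, and the depletion value 1.52.

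The related 4-O-sulfotransferases did not share that pattern. CHST12 had -0.21 after depletion and -0.40 after transfection, CHST13 had -0.01 and 0.36, and the dermatan 4-O-sulfotransferase gene CHST14 (listed as D4ST1) had 0.00 and 0.31. CHST8, which sulfates pituitary hormones, had -0.19 and -0.28. The chondroitin 6-O-sulfotransferase genes had the signs of CHST11 at smaller sizes: CHST3 had 0.92 and -0.35, and CHST7 had 0.15 and -0.25. All but the CHST3 depletion value were smaller than the SD between probes, 0.42 after depletion and 0.45 after transfection. With the ribosomal centring the transfection values were -0.063 for CHST3 and 0.034 for CHST7. Over the 7 enzymes of chondroitin and dermatan sulfate chains (CHSY1, CHST3, CHST7, CHST11, CHST12, CHST13 and CHST14), a grouping made after the values were seen, 5 were above 0 after depletion and 5 below 0 after transfection, with medians of 0.15 and -0.25; of all genes 51.3% were above 0 after depletion and 50.7% after transfection. With the ribosomal centring 7 were above 0 after depletion, beside 82.2% of all genes, and 4 after transfection, beside 78.7%. CHST11 is itself 1 of the 7.

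The remaining CHST genes act on keratan sulfate and on glycans of L-selectin ligands. After depletion CHST4 was at 0.73, CHST5 at 0.07 and CHST6, the corneal keratan sulfate enzyme, at -0.83. CHST5 and CHST6 are near-identical neighbours in the genome, so these values could be mixed between the 2 genes. CHST5 was at -0.44 after transfection, and CHST4 and CHST6 had no value there. CHST2 had -0.38 after depletion and 0.14 after transfection. CHST1 was at -0.25 after depletion, without a value after transfection.

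**Figure D3:**
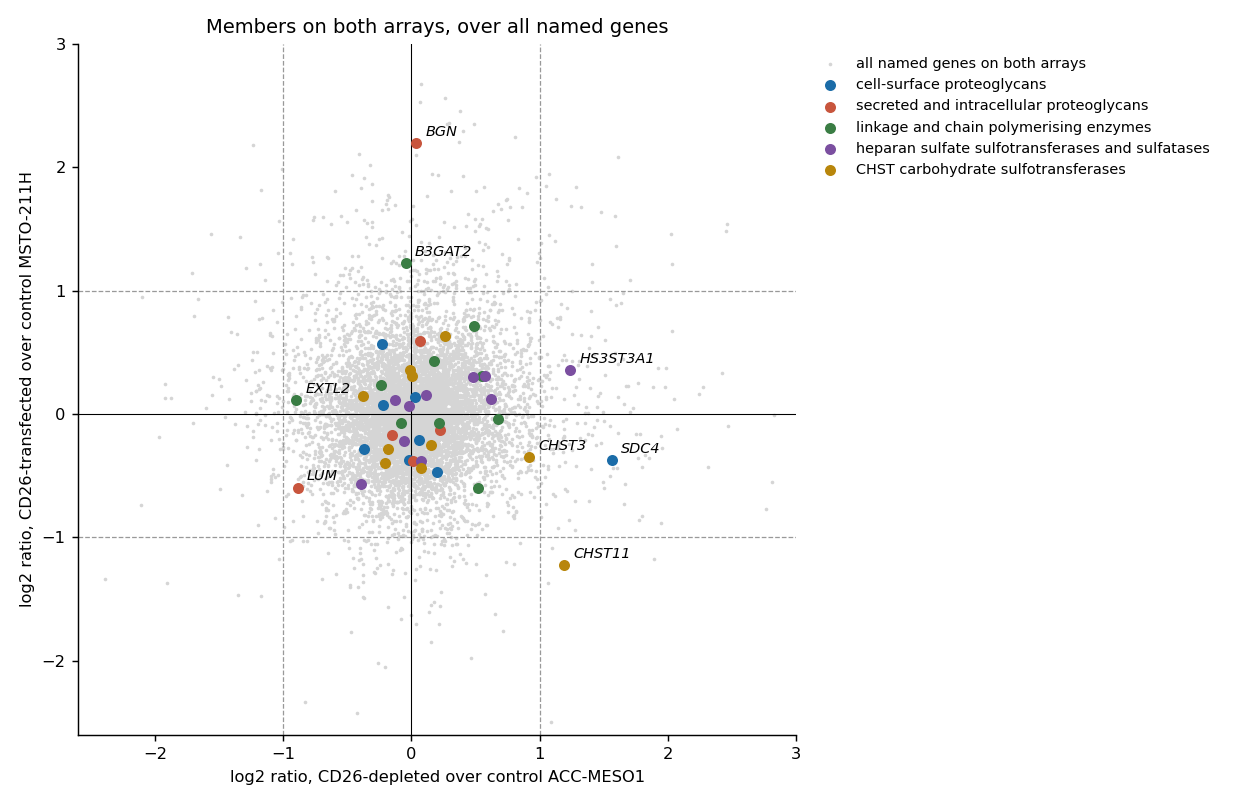
Log2 ratio after CD26 depletion in ACC-MESO1 cells (x axis) against that after CD26 transfection in MSTO-211H cells (y axis), for the 44 members measured on both arrays (coloured by role) over all 8956 named genes measured on both (grey, of which 6 lie beyond the axes); dashed lines mark 2-fold. CHST11 sits alone among the members in the lower right corner, SDC4 and HS3ST3A1 lie to the right and BGN and B3GAT2 at the top.

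The 2 arrays were set side by side for the 44 members with a value on both. Opposite signs were found for 22 of them (50%), and for 46.9% of all 8956 genes; with the ribosomal centring it was 13 of the 44 and 30.1%. Of the 22 as deposited, 13 were above 0 after depletion and below 0 after transfection (29.5% of the members and 24% of all genes), and 9 were the other way round (20.5% and 22.9%). Across members, Pearson's r between the arrays was -0.07 and Spearman's rho 0.07, given as a description across genes that are not independent and that share dye orientation. Without CHST11, r was 0.05 over 43 genes, so its sign rested on that gene. Over all 8956 genes r was 0.06 and rho 0.08. Apart from CHST11, none of the members was past 2-fold on both arrays.

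A further list of 72 genes of glycosaminoglycan metabolism holds the linkage enzymes, sugar and sulfate donors, hyaluronan binding proteins, degrading enzymes and further proteoglycans; 57 were named on the array. Of the 42 measured after depletion, 2 passed 2-fold upward and 1 downward, against 3.31% and 1.56% of all genes, with a median of 0.06. Of the 41 measured after transfection, 1 passed upward and 1 downward, against 4.09% and 1.37% of all genes, with a median of -0.09.

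After depletion the highest was HAPLN1 (2.29, 4.90-fold), a link protein that ties proteoglycans to hyaluronan, followed by the keratan sulfate proteoglycan gene KERA (1.04). Neither was measured after transfection; 13.2% of the 1391 genes measured only after depletion were past 2-fold. The lowest was the matrix protein gene ECM2, with -1.41 after depletion and 0.67 after transfection. After transfection the highest was SPOCK1 (1.89, 3.70-fold), which encodes the proteoglycan testican. It was measured on that array alone, where 31.8% of the 403 such genes were past 2-fold. The lowest of the list after transfection was IDS (-1.25, 2.38-fold), the lysosomal sulfatase that starts the breakdown of heparan and dermatan sulfate. IDS was at 0.04 after depletion. IDS rested on 1 probe. HYAL3, at -0.77 after transfection, is the mean of 3 probes that differed, at -0.27, -0.20 and -1.83. CD44, the main hyaluronan receptor, had 0.76 after depletion and -0.23 after transfection. The sulfate donor synthases PAPSS1 (0.23 and 0.61) and PAPSS2 (-0.56 and -0.09) and the UDP-glucose dehydrogenase gene UGDH (-0.76 and 0.28), which makes the glucuronic acid donor, were short of 2-fold.

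**Figure D4:**
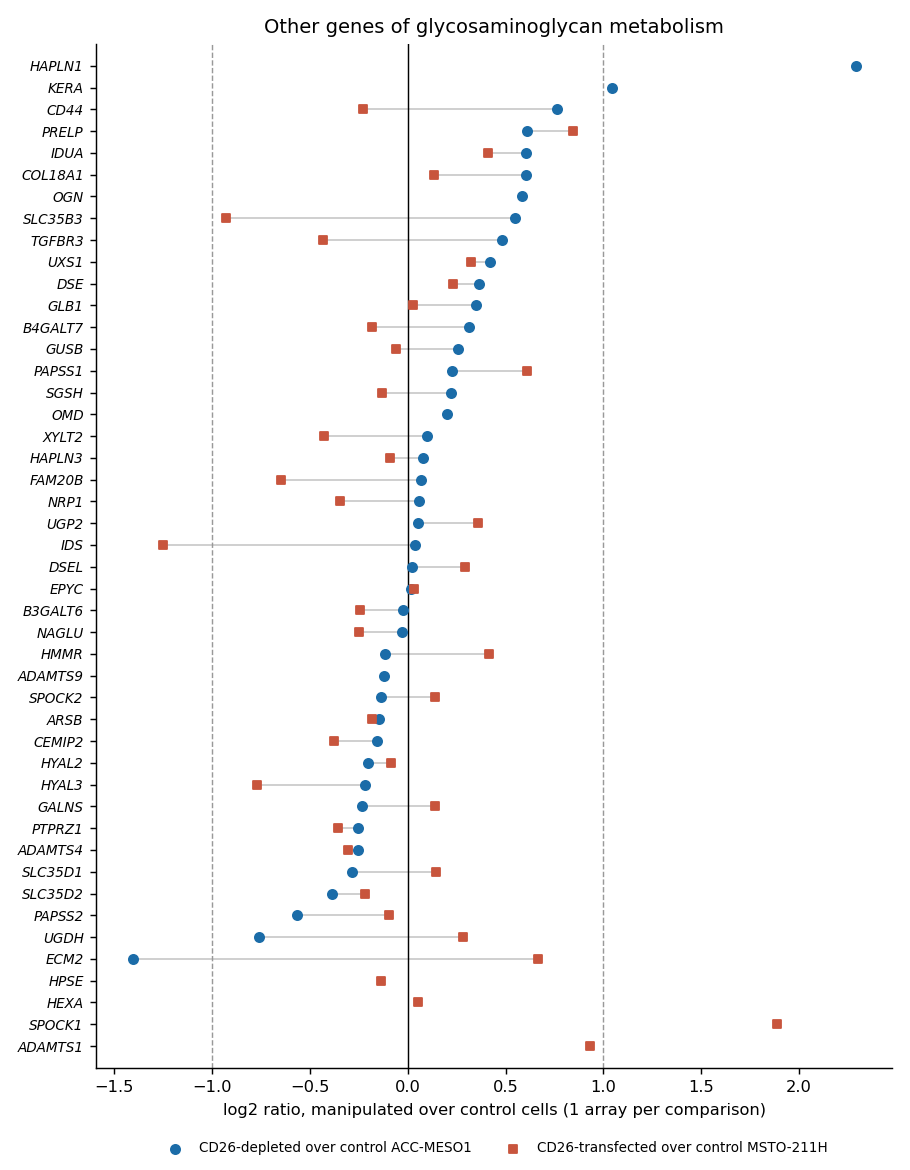
Log2 ratio (x axis) of 46 other genes of glycosaminoglycan metabolism, ordered by the depletion value, for CD26-depleted over control ACC-MESO1 cells (circles) and CD26-transfected over control MSTO-211H cells (squares); dashed lines mark 2-fold. HAPLN1 and KERA lie to the right and ECM2 to the left after depletion, SPOCK1 to the right and IDS to the left after transfection.

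The deposited ratios have an array median of 0, and the choice of that zero matters most for genes near 2-fold. Centring each array on 34 ribosomal protein genes moved all genes up by 0.33 after depletion and by 0.29 after transfection. At least 2-fold higher after depletion were then 6 members (SDC4, HS3ST3A1, CHST11, CHST3, CHST4 and CHSY1) and 7.64% of all genes, and after transfection 4 members (BGN, HS6ST2, B3GAT2 and NDST3) and 7.77% of all genes, with 0 members lower on either array. SDC4, HS3ST3A1, CHST11, BGN, HS6ST2 and B3GAT2 stayed at least 2-fold higher on their array under every centring and scaling tried, and CHST11 stayed below 0 after transfection.

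**Figure D5:**
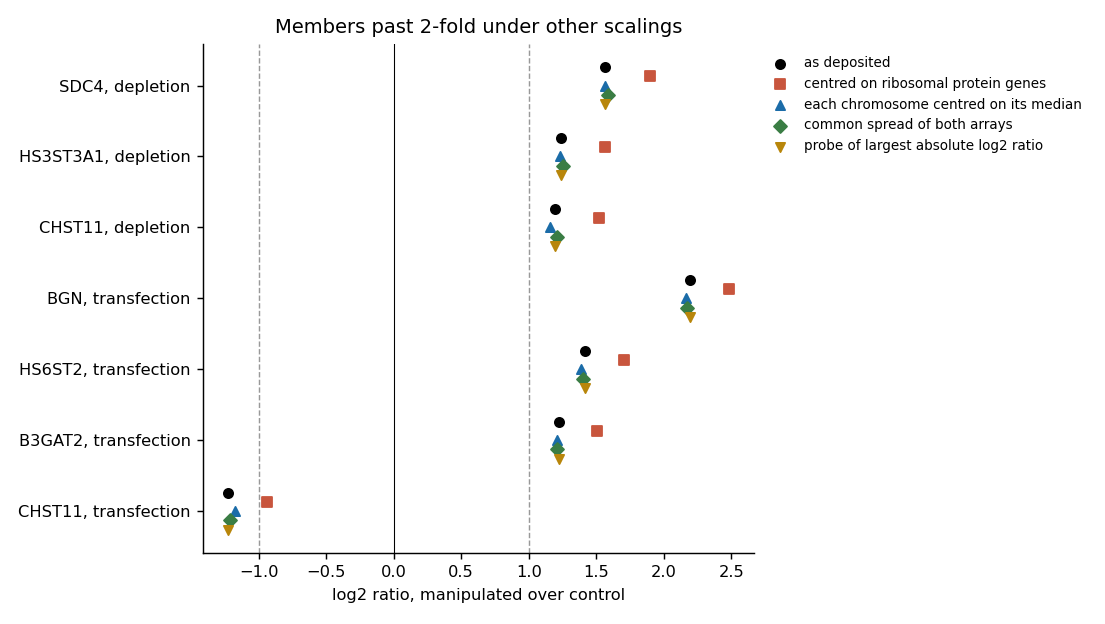
Log2 ratio (x axis) of the members past 2-fold, as deposited and under 4 other ways of scaling the arrays or of treating probes; dashed lines mark 2-fold. Centring on ribosomal protein genes moved each value to the right and took CHST11 after transfection to -0.94, short of 2-fold, while the other settings differed little from the deposited values. The probe rule could not change these values, as each gene had 1 probe.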

How the data were processed

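Total RNA of cultured cells was extracted, amplified and dye-labelled by an amino allyl method, per the labels' protocols; Cy3 carried the manipulated and Cy5 the control cells on both arrays, with no dye swap. The authors deposited normalized log2 ratios of manipulated over control cells, with the direction per the labels and a median of 0 over the probes of each array. How the arrays were scanned, background-corrected and normalized, and why some probes lack values, was not given in the sources used here. Only ratios were analysed, so dim and bright probes could not be told apart.

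The table held 24267 probes, of which the platform annotation gave 1 symbol to 13395, several to 0 and none to 10872. Of the distinct symbols, 10076 were current in RefSeq GRCh38.p14, 2285 were older synonyms and were updated, and 113 that fit several genes were left as listed. Several probes for 1 gene were averaged with pandas 2.3.3 in Python 3.11.15, and the averaging and counting were tested on simulated data. Genes were counted past a log2 ratio of 1 in size and set beside the same count over all named genes. Every member may be named. Of the 72 other pathway genes, those past 2-fold and the extremes are named. CD44, PAPSS1, PAPSS2, UGDH and HYAL3 were added after their values were seen. EPYC, OGN and OMD, neither past 2-fold nor extremes, are also named, as genes that lie beside others of their family. The members and lists were chosen with earlier results of these data known. Alternatives were 2 other centrings, a common spread, another rule for several probes, genes on both arrays, thresholds of 0.5 and 1.5 and, added after the data were seen, leaving out the probe listed as PRG1.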

Additional observations from a re-analysis of the deposited data

How the results depend on the processing

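As deposited, 3 members were at least 2-fold higher and 0 lower after depletion, and 3 higher and 1 lower after transfection. At a log2 threshold of 0.5 the counts were 10 higher and 3 lower after depletion and 8 higher and 4 lower after transfection; the same threshold took in 12.8% and 9.8% of all genes after depletion and 13.1% and 9.4% after transfection. At 1.5 they were 1 higher (SDC4) and 0 lower after depletion, against 1.21% and 0.213% of all genes, and 1 higher (BGN) and 0 lower after transfection, against 1.51% and 0.235%. Centring on ribosomal protein genes gave 6 higher after depletion and 0 lower after transfection. Over all named genes that centring gave 790 higher and 43 lower after depletion, against 342 and 161 as deposited, and 727 and 46 after transfection, against 383 and 128. The higher counts follow from the upward shift of all genes that this centring makes. Counts under centring by chromosome, a common spread, the probe of largest ratio, genes on both arrays and without PRG1 were within 1.5 times of those as deposited. The median of the members ranged from 0.03 to 0.39 after depletion and from 0.01 to 0.36 after transfection over the alternatives run, the highest with the ribosomal centring. In 65 recalculations of the single members past 2-fold on either array, 0 changed the sign of a value past 2-fold and 65 moved by less than the SD between probes. Much of this was fixed in advance. Restricting to genes on both arrays and leaving out PRG1 could not change any of these values. With 1 probe for each gene, the probe rule could not either. The ribosomal centring moved all values by 0.33 after depletion and 0.29 after transfection, less than that SD. No paired analysis was possible because each comparison had 1 array, and for the same reason no replicate could be left out. Signal over background was not known for any probe.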

Other observations

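For each member past 2-fold, the 3 nearest measured named genes on either side in the RefSeq order were taken. The 6 neighbours of SDC4 had a median log2 ratio of -0.26 after depletion (range -0.56 to 0.23), those of CHST11 -0.08 (-0.56 to 0.72) and those of HS3ST3A1 0.12 (-0.63 to 0.58), the highest of the last being its paralog HS3ST3B1. After transfection the neighbours of BGN had a median of -0.20 (-0.37 to -0.06), those of CHST11 -0.08 (-0.40 to 0.98), those of HS6ST2 0.05 (-0.29 to 1.25) and those of B3GAT2 -0.03 (-0.71 to 1.52). For HS6ST2 and for B3GAT2, 1 of the 6 neighbours was thus itself at least 2-fold higher. For the other members none of the 6 was past 2-fold. Of all named genes, 4.09% were at least 2-fold higher and 1.37% lower after transfection, and 3.31% and 1.56% after depletion. Counts this small do not set the neighbours apart from all genes.

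Several proteoglycan genes lie side by side in the genome. EPYC, KERA, LUM and DCN form a run of small leucine-rich proteoglycan genes with no protein-coding gene between them. Their log2 ratios after depletion were 0.02, 1.04, -0.89 and 0.01. After transfection EPYC was at 0.03, LUM at -0.60 and DCN at -0.38, and KERA had no value. The adjacent genes OGN and OMD, of the same family, had 0.58 and 0.20 after depletion. VCAN and its neighbour HAPLN1, whose proteins meet on hyaluronan, had -0.15 and 2.29 after depletion. The neighbours GPC4 and GPC3 had -0.37 and 0.49, likewise after depletion. Each of these values came from 1 probe on 1 array.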
